A study of Mus musculus with 13 samples.

Results

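Hemidesmosomes and the fibres beneath them fix basal keratinocytes to the basement membrane, and 9 genes of this anchorage are described here in mouse skin, out of 27998 genes counted. They were taken by symbol for their known place in this anchorage, as a list drawn up when earlier results of these data were known: Col17a1, Itga6, Itgb4, Dst, Plec, Lama3, Lamb3, Col7a1 and Cd151. Single-cell 3′ RNA sequencing was performed on 13 libraries of back skin from wild-type (WT) mice and from Grhl3-/- littermates, which lack the transcription factor Grhl3 and have spina bifida (the skin was taken away from the defect). Each age (E14.5, E16.5 and P0) had 2 WT and 2 Grhl3-/- animals, 1 male and 1 female per genotype. The labels call the last age P0, whereas the study's methods write it together with a late embryonic day. At E14.5 and E16.5 all of the back skin was dissociated after 2 h in Dispase, an enzyme that loosens epidermis from dermis, whereas at P0 the tissue stayed in Dispase overnight and only the epidermis was kept, so that age and preparation cannot be told apart at P0. The thirteenth library, from WT epidermis at P0, used the first version of the Chromium chemistry (v1 in what follows), has no replicate, and is given as values outside every test.

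The hemidesmosome is a plaque on the underside of the basal keratinocyte. Its transmembrane proteins are the integrin pair made from Itga6 and Itgb4 and the collagen made from Col17a1, the plakins Plec and Dst tie these to the keratin filaments inside the cell, and the tetraspanin Cd151 sits with laminin-binding integrins in the membrane. Outside the cell, Lama3 and Lamb3 encode chains of the laminin on which the integrin holds, and Col7a1 encodes the collagen of the anchoring fibrils that reach into the dermis. Loss of function of several of these genes causes blistering skin disease. A keratinocyte leaves this anchorage when it moves from the basal layer into the suprabasal layers of the interfollicular epidermis (IFE).

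The members differ widely in size. On GRCm38, Dst spans 400.4 kb of chromosome 1 (33908225 to 34308661, plus strand) with a longest annotated transcript of 23279 bases, and Cd151 spans 4.1 kb of chromosome 7 (141467392 to 141471473, plus strand) with a longest transcript of 1865 bases. Plec (chromosome 15, 76170974 to 76232574, minus strand), Lama3 and Col7a1 (chromosome 9, 108953586 to 108984875, plus strand) have longest transcripts of 15455, 10548 and 9250 bases. Itgb4 (chromosome 11, 115974709 to 116008412, plus strand), Col17a1 (chromosome 19, 47646344 to 47692094, minus strand), Lamb3 (chromosome 1, 193207699 to 193343878, plus strand) and Itga6 (chromosome 2, 71745616 to 71858416, plus strand) lie between 6208 and 4310 bases. Reads were counted per gene at the 3′ end, so the epithelial and the other isoforms of Dst were summed and levels are not compared between genes.

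Promoters are shown for 2 members that moved in opposite directions in Grhl3-/- basal cells at P0 (described further on), because Grhl3 belongs to the Grainyhead-like factors, whose binding motif is known. RefSeq promoters, 250 bases before to 50 after a start on GRCm38.p6, were at hand for 5 of the 9 members, 8 promoters in all. The full motif AACCGGTT was in none of the 8 and in 0.146% of 32851 promoters, and with any base at the fourth position (AACNGGTT, read on both strands, which includes the full motif) it was in 1 of 8, at Cd151, and in 2.09% of all. The AP-1 motif TGANTCA was in 0 of 8 and in 7.81% of all. Both sequences below read 5′ to 3′ along the gene, with the match to AACNGGTT, found on the opposite strand and starting 59 bases before the start of transcription, in capitals.
Cd151, chr7:141467112-141467411, plus strand: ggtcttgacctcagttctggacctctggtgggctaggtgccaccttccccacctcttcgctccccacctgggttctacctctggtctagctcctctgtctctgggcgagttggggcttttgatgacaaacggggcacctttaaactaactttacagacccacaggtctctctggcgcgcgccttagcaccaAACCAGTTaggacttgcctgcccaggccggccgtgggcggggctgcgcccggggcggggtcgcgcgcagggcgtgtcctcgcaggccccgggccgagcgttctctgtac
Col17a1, chr19:47691993-47692292, minus strand: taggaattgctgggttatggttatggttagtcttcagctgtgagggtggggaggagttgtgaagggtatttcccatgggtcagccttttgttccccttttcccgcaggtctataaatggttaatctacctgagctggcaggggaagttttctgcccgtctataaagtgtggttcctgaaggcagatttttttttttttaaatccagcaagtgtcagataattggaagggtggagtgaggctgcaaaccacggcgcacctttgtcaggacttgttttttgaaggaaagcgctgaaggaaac
A match is a string of letters in this window, and its absence says nothing about the factor.

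The 12 tested libraries held 57270821 to 107038146 unique molecular identifiers (UMIs, tags that each mark a captured transcript) in 5991 to 9978 cell barcodes, of which 5267 to 9157 cells were kept, and the v1 library held 49245953 UMIs. Any pair of tested libraries shared 52 to 131 barcodes, at most 1.76% of the smaller. Cells were clustered without the members or the other anchoring genes below, and clusters were called basal-like, suprabasal-like or follicle-like from keratin and other marker genes. The 12 libraries gave 141 to 938 basal-like, 82 to 684 suprabasal-like and 31 to 4774 follicle-like cells each, and UMIs were summed per library and class and given as counts per 1000000 UMIs of that class (CPM). All 9 members passed the filter on low counts in the 3 classes. Of the IFE cells, 0.868 to 2.34% stayed unnamed at E14.5, 20.6 to 29.6% at E16.5, 19.8 and 21.8% in P0 WT and 31.6 and 37.6% in P0 Grhl3-/- libraries. Grhl3 itself was highest in suprabasal-like cells and was lower there in Grhl3-/- libraries at each age, with 85.7 and 106.8 CPM in WT against 58.3 and 63.1 CPM at E14.5, 36.2 and 37.9 against 17.8 and 11.9 CPM at E16.5, and 31.2 and 28.9 against 9.59 and 14.1 CPM at P0 (log2 difference at P0 -1.41 ± 0.24 SE, adjusted p = 0.00215, edgeR). The difference at E14.5 did not pass (adjusted p = 0.184), and which exons the allele lacks is not given in the labels, so 3′ tags may lie outside them and check the label only in part.

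Where each gene was read most was described first, with no test, since the classes were themselves made from these cells. In all 12 libraries 8 of the 9 members were higher in basal-like than in suprabasal-like cells of the same library. The median ratio was 17.9 for Col17a1 (range 4.53 to 54.1), 12.1 for Lamb3 (3.13 to 27.4), 8.45 for Itga6 and 6.43 for Itgb4, so these 3 membrane proteins of the plaque and 1 of the 2 laminin chains fell most steeply with layer. It was 5.92 for Dst, 3.88 for Col7a1, 3.37 for Lama3 and 3.02 for Cd151. Plec was the exception, higher in basal-like cells in 8 of 12 libraries with a median ratio of 1.41 (0.569 to 2.42), and all 4 libraries with the reverse order were from E14.5. Between basal-like and follicle-like cells the median ratios were smaller, from 1.24 for Cd151 to 2.87 for Col17a1, and Itgb4, Dst, Plec and Lama3 were higher in basal-like cells in 12 of 12 libraries. With the size factors of the tests (TMM) every median over suprabasal-like cells was smaller. It was 14.9 for Col17a1, 10.6 for Lamb3, 6.47 for Itga6, 5.40 for Itgb4 and 1.16 for Plec. The medians over follicle-like cells were larger, from 1.33 for Cd151 to 3.34 for Col17a1.

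**Figure D1:**
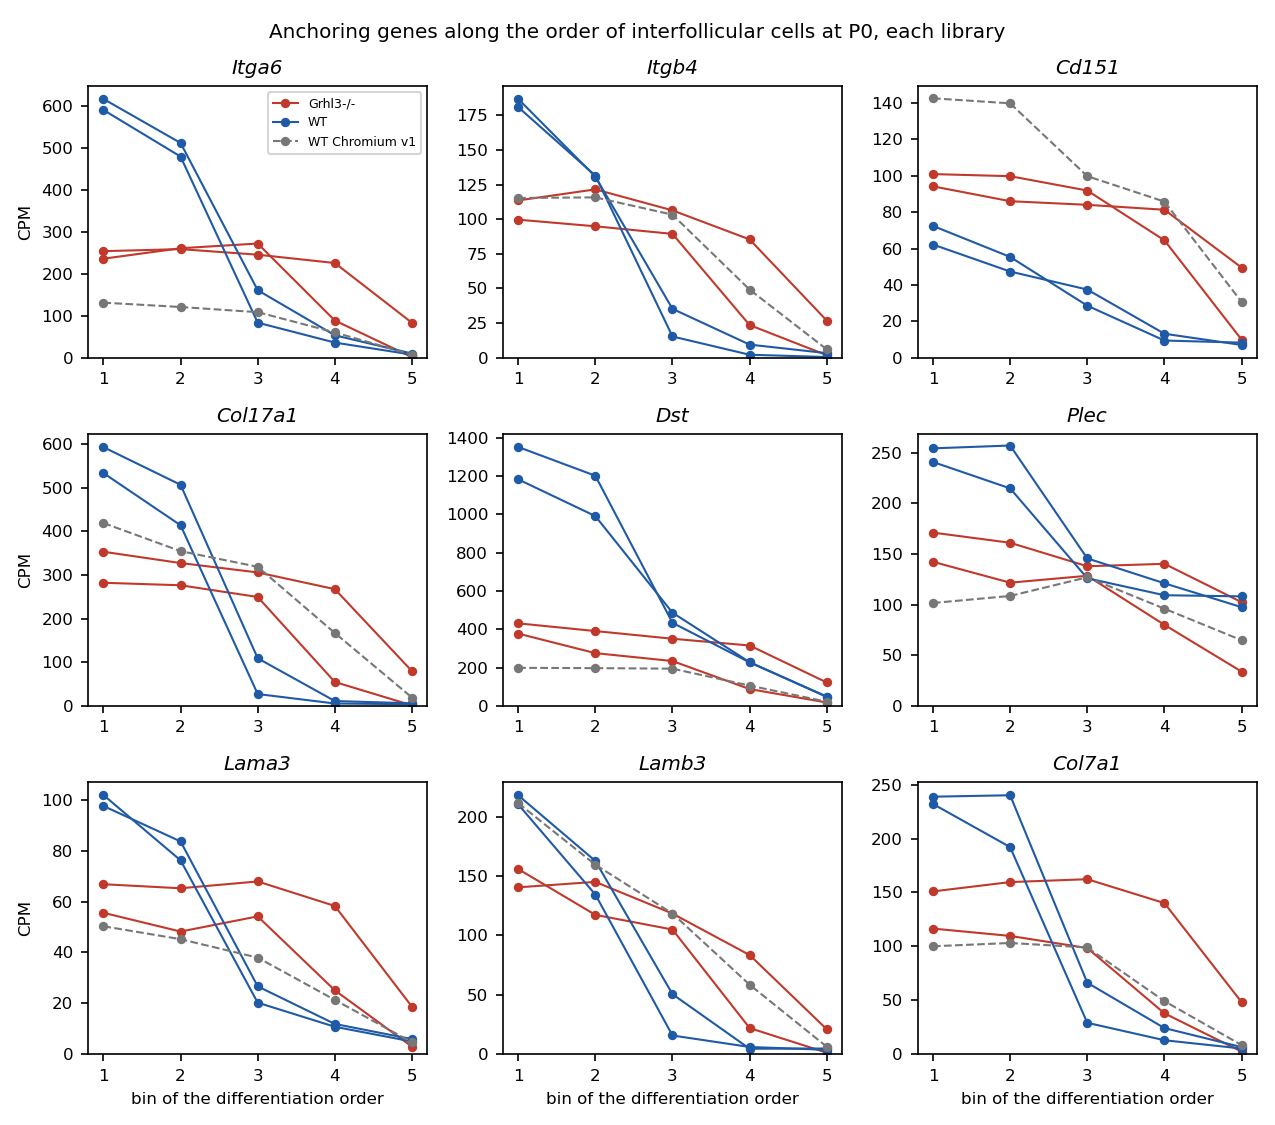
Level (CPM, linear axis from 0) of each member in 5 bins of equal cell number along the IFE, ordered from basal (bin 1) to suprabasal (bin 5) by marker genes that exclude the members, at P0. Each line with points is 1 library, 2 of WT and 2 of Grhl3-/-, and the dashed line is the v1 library. Col17a1 drops from 460.2 to 68.1 CPM between bins 2 and 3 in the WT mean and stays at a mean of 277.6 CPM in bin 3 of Grhl3-/- libraries.

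The same fall was followed along the IFE by ordering cells on suprabasal minus basal marker scores and cutting each library into 5 bins of equal cell number. Krt5 was highest in bin 1 and Krt10 and Krt1 in bin 5 in all 12 libraries, and Krt14 was highest in bin 1 in 11. These keratins are among the markers that set the order, so their places were largely fixed in advance. Dst and Cd151 were highest in bin 1 in 10 libraries, Col17a1 in 9, Itga6 and Itgb4 in 8, Lamb3 in 7, and Lama3, Col7a1 and Plec in 6. The median ratio of bin 1 to bin 5 was at least 42.0 for Col17a1 and at least 32.6 for Lamb3 (each with 0 UMIs in bin 5 of 2 libraries, set to 3 UMIs per library to give a bound), 22.5 for Itgb4 and 18.7 for Itga6, against 3.62 for Lama3 and 1.51 for Plec. In cells outside S and G2M phase, where bin 5 held 0 UMIs of Col17a1 in 6 libraries, of Itga6 in 4, of Itgb4 and Lamb3 in 3 each, of Col7a1 in 2 and of Lama3 in 1, the median ratios with the same bound were at least 52.6 for Col17a1, 37.5 for Lamb3, 23.6 for Itga6, 22.5 for Itgb4, 10.05 for Lama3 and 8.596 for Col7a1 (6.76 in all cells), and 1.59 for Plec. At P0 the WT curves bent between bins 2 and 3, where Col17a1 went from 460.2 to 68.1 CPM, Itgb4 from 131.1 to 25.3 CPM and Lamb3 from 148.6 to 33.1 CPM. In Grhl3-/- libraries at P0 these genes were nearly level from bin 2 to bin 3, at 301.8 and 277.6 CPM for Col17a1, 108.2 and 97.9 CPM for Itgb4 and 131.2 and 111.7 CPM for Lamb3. The bins did not hold the same cells in both genotypes: in bin 3, 18 and 1 of 216 cells were basal-like in the WT libraries against 186 of 371 and 54 of 171 in the Grhl3-/- ones and 147 of 374 in the v1 WT library, which had 318.7 CPM of Col17a1 there. What part the mix of cells has in these curves was not tested.

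The next question was how the anchorage changes as WT skin matures. In basal-like cells 8 of the 9 members were higher at E16.5 than at E14.5 (8.93% of the 11542 genes tested were higher and 16.4% called in either direction), and the embryonic ages share their preparation. The 2 genes that gained most act outside the cell. Col7a1 was at 11.5 and 13.05 CPM at E14.5 and at 83.5 and 91.9 CPM at E16.5, a 7.52-fold rise (log2 difference 2.91 ± 0.21 SE, adjusted p = 1.12e-08). Lamb3 went from 32.5 and 24.5 CPM to 103.3 and 100.9 CPM, a 3.91-fold rise (1.97 ± 0.15, adjusted p = 3.02e-08). The values of the ages did not come near each other for either gene.

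The other laminin chain, Lama3, rose less, by 1.74-fold (0.80 ± 0.21, adjusted p = 0.0131), from 14.9 and 16.7 CPM to 23.9 and 28.2 CPM. Among the genes of the plaque, Col17a1 rose 2.81-fold, from 61.0 and 64.0 CPM to 157.7 and 172.8 CPM (1.49 ± 0.14, adjusted p = 4.57e-07). Plec rose 2.15-fold, Dst 2.14-fold and Itga6 1.99-fold, and Itgb4 1.399-fold with the weakest call of the 8 (adjusted p = 0.04). The Itgb4 call was lost under 9 of 25 alternatives (adjusted p up to 0.694), among them DESeq2 and leaving out any of the 4 E14.5 libraries or E16.5 WT replicate 2. The Lama3 call was lost under 4 (up to 0.50), among them leaving out either E14.5 WT library or E16.5 WT replicate 2. Of the integrin partners, Itga6 went from 59.0 and 67.3 CPM to 120.9 and 116.3 CPM, and Itgb4 from 48.1 and 42.4 CPM to 53.6 and 63.9 CPM, and the difference between the 2 changes was not tested. Cd151 was at 98.3 and 97.5 CPM at E14.5 and at 91.2 and 99.98 CPM at E16.5, values that overlapped (adjusted p = 0.798).

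**Figure D2:**
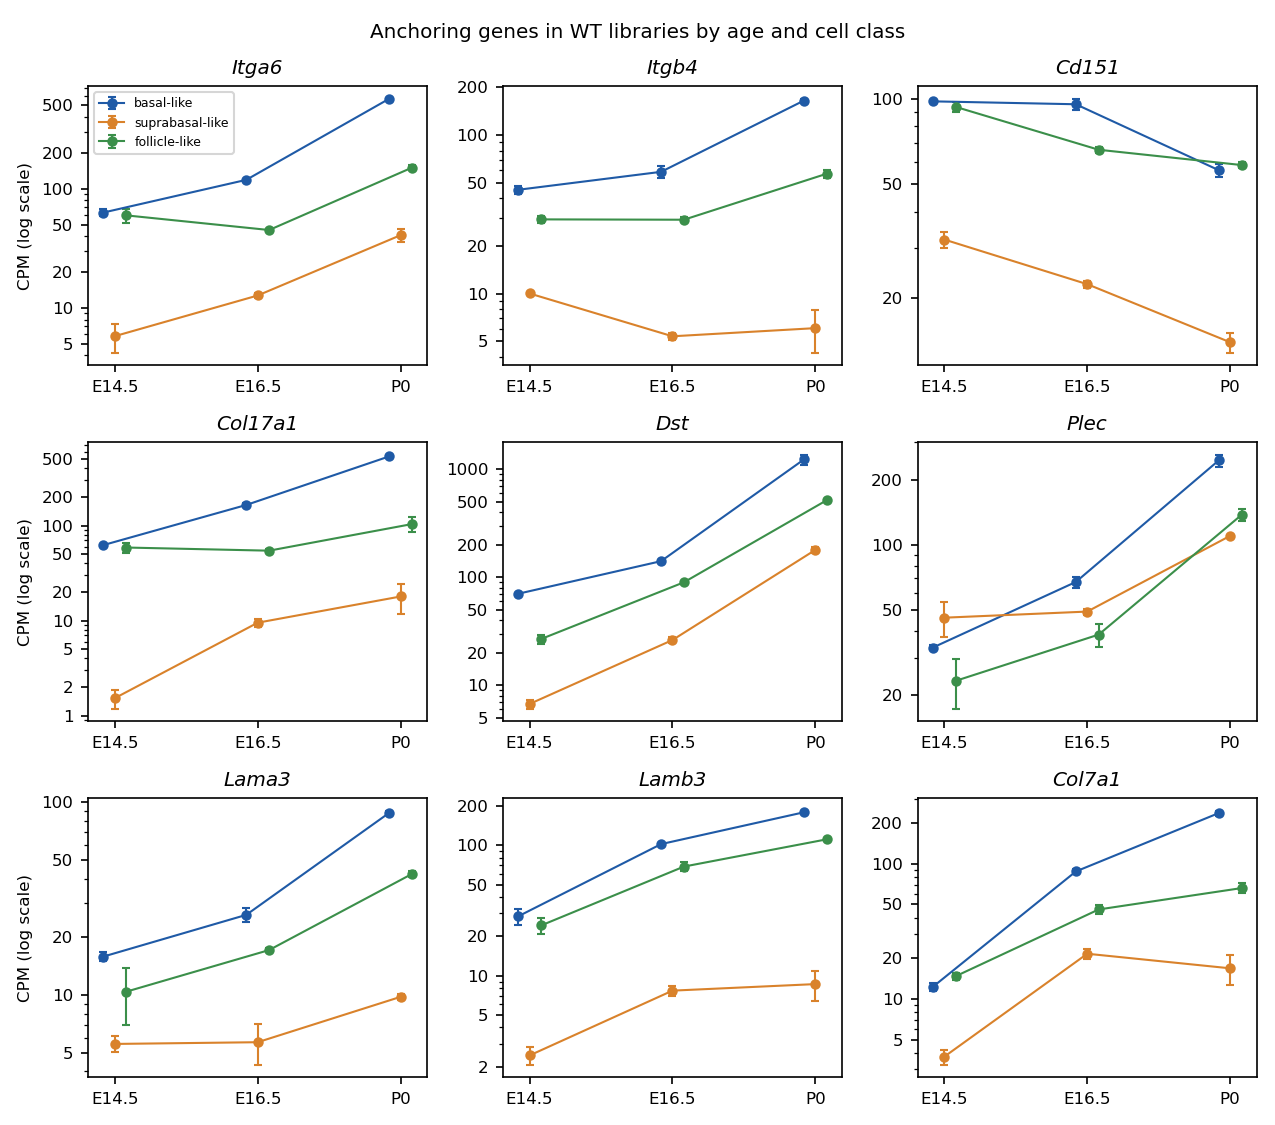
Level (CPM, log axis) of each member in WT basal-like, suprabasal-like and follicle-like cells at E14.5, E16.5 and P0. Points are means of 2 libraries, bars run from the lower to the higher library, and lines join the means. In basal-like cells every member except Cd151 climbs to P0, and Cd151 is lowest there, at 58.9 and 53.2 CPM.

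At P0 the same 8 members were higher again in basal-like cells than at E16.5 and Cd151 was lower, in a comparison where 61.4% of all genes were called, 31.1% higher and 30.3% lower. Dst changed most, from 137.0 and 144.7 CPM to 1096 and 1358 CPM, an 8.85-fold rise (3.15 ± 0.15, adjusted p = 1.23e-11). Itga6 rose 4.85-fold to 566.7 and 568.2 CPM, Plec 3.72-fold to 263.1 and 231.8 CPM, Lama3 3.42-fold to 85.9 and 90.6 CPM, and Col17a1 3.29-fold to 558.9 and 513.5 CPM. Itgb4, the member that had risen least before, rose 2.85-fold to 160.8 and 170.0 CPM. Col7a1 and Lamb3, which had risen most between the embryonic ages, rose 2.74-fold and 1.78-fold. Cd151 was 1.68-fold lower, at 58.9 and 53.2 CPM (-0.75 ± 0.12, adjusted p = 3.13e-05). From E14.5 to P0 (63.3% of genes called, 31.9% higher and 31.3% lower) the rise came to 20.6-fold for Col7a1 and 18.9-fold for Dst. S or G2M phase was scored in 81.6 and 82.8% of WT basal-like cells at E14.5, 87.1 and 83.2% at E16.5 and 33.4 and 29.97% at P0. The suprabasal keratins moved in the same class: Krt1 was at 28.5 and 27.3 CPM at E14.5, 218.1 and 267.1 CPM at E16.5 and 2376 and 2146 CPM at P0 (3.24 ± 0.25 from E16.5, adjusted p = 3.82e-09), and Krt10 was 2.22 ± 0.18 higher at P0 than at E16.5 (adjusted p = 1.06e-08). The median difference of all genes from E14.5 to P0 ran from -0.43 in the set with the shortest transcripts to 0.80 in that with the longest. The 12 genes of a dissociation stress list summed to 5612 and 5929 CPM in these cells at E14.5, 5759 and 5592 CPM at E16.5 and 3578 and 4186 CPM at P0. The embryonic basal-like sums held 309 to 600 CPM of fibroblast markers and 707 to 5169 CPM of red cell markers against 12 to 19 and 0 to 9 CPM at P0, the dermis having been removed, and the part of any of these in the differences was not tested.

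Suprabasal-like cells, where few UMIs of these genes were counted (4 of Col17a1 in each E14.5 WT library), followed in part. Between E14.5 and E16.5 the test called 3 members, all higher: Col17a1 (adjusted p = 0.0322), Dst (0.00226) and Col7a1 (0.00251), against 20.6% of all genes (11.9% higher). Leaving out either P0 Grhl3-/- library, which enters through the spread, gave 5 calls, while leaving out any of the 4 WT libraries compared removed that of Col17a1, and in cells outside S and G2M phase 1 was left, of Col7a1. Between E16.5 and P0 it called Itga6, Dst, Plec and Lama3, all higher, against 44.9% of all genes (22.3% higher). The Lama3 call was lost under 5 of 25 alternatives (adjusted p up to 0.197), DESeq2, thinned sums and leaving out E16.5 WT replicate 2 or either P0 WT library. The stress list fell in these cells from 5811 and 6249 CPM at E14.5 through 3531 and 3625 CPM to 1991 and 2620 CPM at P0. Fibroblast markers were at 312 and 293 CPM at E14.5, 631 and 522 CPM at E16.5 and 0.986 and 0.335 CPM at P0. Cells outside S and G2M phase were 65 of 147 and 84 of 218 at E14.5, 190 of 263 and 310 of 399 at E16.5 and 502 of 506 and 569 of 569 at P0. The part of any of these was not tested. From E14.5 to P0 7 were higher and Cd151 lower, against 55.4% (29.4% higher, 26.0% lower). Dst went from 6.09 and 7.39 CPM at E14.5 through 27.8 and 24.8 CPM at E16.5 to 166.1 and 191.9 CPM at P0. Follicle-like cells came from 1 cluster at E14.5 (31 and 56 WT cells), 1 at E16.5 and 16 at P0, so age and the kinds of follicle cell cannot be told apart in them. There 3 members rose between the embryonic ages (8.55% of genes called, 4.62% higher), Dst by 1.64 ± 0.22, Lamb3 by 1.38 ± 0.25 and Col7a1 by 1.55 ± 0.37 on the log2 scale, of which 1 call was left without E14.5 WT replicate 2. At P0 all but Cd151 were higher than at E16.5 (52.6% of genes called, 27.3% higher), again led by Dst, from 87.0 and 92.7 CPM to 526.7 and 504.6 CPM, and from E14.5 to P0 7 were higher and Cd151 lower (39.1% of genes called, 20.6% higher and 18.5% lower). WT follicle-like sums held 1600 and 1063 CPM of fibroblast markers at E16.5 and 19.2 and 19.3 CPM at P0. Red cell markers were at 4411 and 15214 CPM, then 2.05 and 0.882 CPM. The stress list was at 5137 and 4557 CPM, then 2793 and 3413 CPM. The part of any of these was not tested.

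The central comparison was of Grhl3-/- with WT. At P0 in basal-like cells all 9 members differed: 8 were lower in Grhl3-/- libraries and Cd151 was higher, and for each the values of the genotypes did not overlap. Calls were common in this comparison, where 38.6% of the 11542 genes passed (19.2% higher, 19.4% lower) and 65.9% did not overlap. The members' median log2 difference was -0.69 against -0.01 over all genes tested. The 8 lower members ran from 1.39-fold to 3.40-fold, the plakin Dst having the widest gap and the laminin chains the narrowest. The class came from the same 4 subclusters in both genotypes. The one with Col17a1 and Col7a1 among its leading genes gave 19.5 and 18.2% of WT and 13.3 and 5.82% of Grhl3-/- cells. Without it the WT sums went from 5784698 and 5465936 UMIs to 3584816 and 3450456. The Grhl3-/- sums went from 10798632 and 2998302 UMIs to 8020773 and 2612796. The 9 calls held when this subcluster was left out, a setting chosen after seeing the data.

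**Figure D3:**
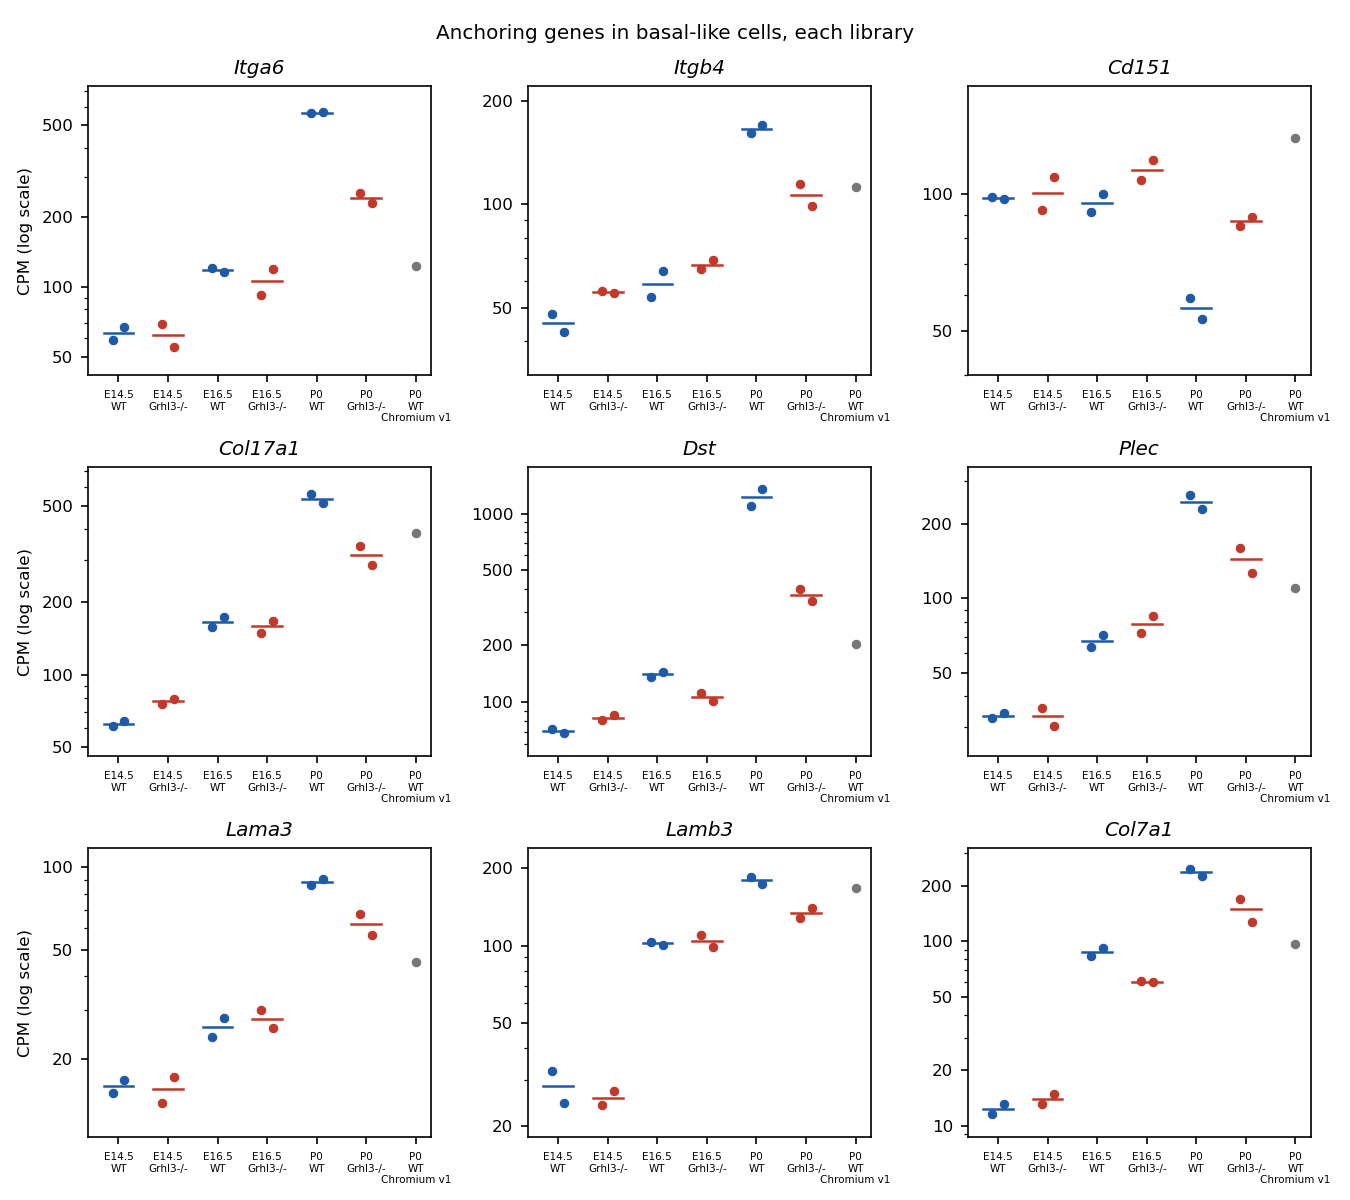
Level (CPM, log axis) of the 9 members in basal-like cells of each library, by age and genotype. Points are libraries and short bars are means of groups of 2 libraries, with no bar for the single v1 library. At P0 the WT and Grhl3-/- points of each member lie apart, and Dst is at 1096 and 1358 CPM in WT and at 398.9 and 345.5 CPM in Grhl3-/- libraries.

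Of the transmembrane genes, Itga6 stood at 566.7 and 568.2 CPM in WT and at 254.9 and 230.8 CPM in Grhl3-/- basal-like cells, 2.41-fold lower (log2 difference -1.27 ± 0.13 SE, adjusted p = 8.14e-07). Its partner Itgb4 was at 160.8 and 170.0 CPM against 114.6 and 99.1 CPM, 1.58-fold lower (-0.66 ± 0.13, adjusted p = 0.000498). Col17a1 was at 558.9 and 513.5 CPM against 341.2 and 283.5 CPM, 1.76-fold lower (-0.82 ± 0.12, adjusted p = 4.74e-05). The values of both integrin genes and the collagen thus did not overlap between genotypes, as for 65.9% of all genes. Itga6 had a wider gap than its partner, and the difference between these gaps was not tested.

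Dst, which joins the plaque to keratin, was at 1096 and 1358 CPM in WT and at 398.9 and 345.5 CPM in Grhl3-/- libraries, 3.40-fold lower (-1.77 ± 0.14, adjusted p = 5.65e-08). The other plakin, Plec, was at 263.1 and 231.8 CPM against 161.0 and 127.1 CPM, 1.75-fold lower (-0.81 ± 0.13, adjusted p = 0.000137). After each cell was thinned to 2000 UMIs, which left out no cell, 85.2 and 90.9% of WT and 50.1 and 44.5% of Grhl3-/- basal-like cells kept a UMI of Dst. At a fixed depth this share follows mostly from the CPM, so it is no separate evidence of fewer cells with the transcript. Langerhans and macrophage cells, which should lack the plaque and show the background of free RNA, kept a UMI of Dst in 22.9 and 16.2% of WT and in 9.65 and 9.07% of Grhl3-/- cells. The median depths were 12140 and 13693 UMIs in WT and 8667 and 7925 UMIs in Grhl3-/- basal-like cells, and 5892 and 8270 against 7192 and 6634 UMIs in Langerhans and macrophage cells. Without thinning the shares of basal-like cells with Dst were 99.7 and 99.3% in WT and 91.8 and 90.8% in Grhl3-/- libraries.

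Outside the cell, Lama3 was at 85.9 and 90.6 CPM in WT against 67.7 and 56.7 CPM (1.44-fold lower, -0.53 ± 0.14, adjusted p = 0.00679), and Lamb3 at 184.3 and 174.2 CPM against 128.4 and 139.7 CPM (1.39-fold lower, -0.47 ± 0.12, adjusted p = 0.0037). Col7a1 was at 247.0 and 227.2 CPM against 170.2 and 127.7 CPM, 1.62-fold lower (adjusted p = 0.000598). Cd151 alone went the other way, from 58.9 and 53.2 CPM in WT to 85.2 and 89.1 CPM, 1.501-fold higher (0.59 ± 0.12, adjusted p = 0.00101). Its Grhl3-/- values at P0 lay near the embryonic WT values of 91.2 to 99.98 CPM. The call was lost for Lama3 without Grhl3-/- replicate 2 (adjusted p = 0.0765), for Lama3 and Lamb3 in cells outside S and G2M phase, and for Cd151 when sums were thinned to the smallest library, while the other 6 held under each of the 25 alternatives run.

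Values that moved with these differences were read beside them, and their part in the differences was not tested. Genes tested in basal-like cells were split by longest transcript into 5 sets of equal size: the median difference between genotypes at P0 ran from 0.31 in the shortest set (183 to 1889 bases) through 0.17, -0.02 and -0.18 to -0.33 in the longest (5226 to 123179 bases), and the share called lower ran from 9.11 to 34.0%. The longest set held 6 members, the next held Itga6 and Lamb3, and the shortest held Cd151, the only member that was higher. The v1 WT library differed from the replicated WT libraries in the same order of lengths, with medians of 0.55, 0.35, 0.00, -0.34 and -0.82. In it Dst was at 203.2 CPM, 0.166 times the WT mean, Itga6 at 122.8 CPM (0.216 times), Col7a1 at 97.3 CPM (0.410 times), Plec at 110.2 CPM (0.445 times) and Cd151 at 132.8 CPM (2.37 times). For Itga6, Dst, Plec, Lama3, Col7a1 and Cd151 this WT library thus lay beyond both Grhl3-/- libraries, on their side of the replicated WT libraries, whereas Col17a1 (386.9 CPM), Itgb4 (112.7 CPM) and Lamb3 (167.3 CPM) lay between WT and Grhl3-/- or among the latter's values. By the study's methods the genotypes were littermates that shared a pregnancy. Whether their P0 libraries were made in 1 batch is not given in the sources used here, so that the part of a batch could not be tested. The suprabasal keratins were lower in Grhl3-/- basal-like cells too, Krt1 at 402.6 and 442.6 CPM against 2376 and 2146 CPM in WT (-2.47 ± 0.24, adjusted p = 5.54e-07) and Krt10 at 527.9 and 551.98 CPM against 1529 and 2025 CPM (-1.77 ± 0.18, adjusted p = 9.72e-07). Of the basal keratins, Krt14 was higher, at 11807 and 11676 CPM against 7676 and 9205 CPM (0.42 ± 0.12, adjusted p = 0.00968), and Krt5 did not pass (-0.14 ± 0.12, adjusted p = 0.399). Median mitochondrial shares of basal-like cells were 4.52 and 4.19% in WT, 3.27 and 2.64% in Grhl3-/- and 1.42% in the v1 library.

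**Figure D4:**
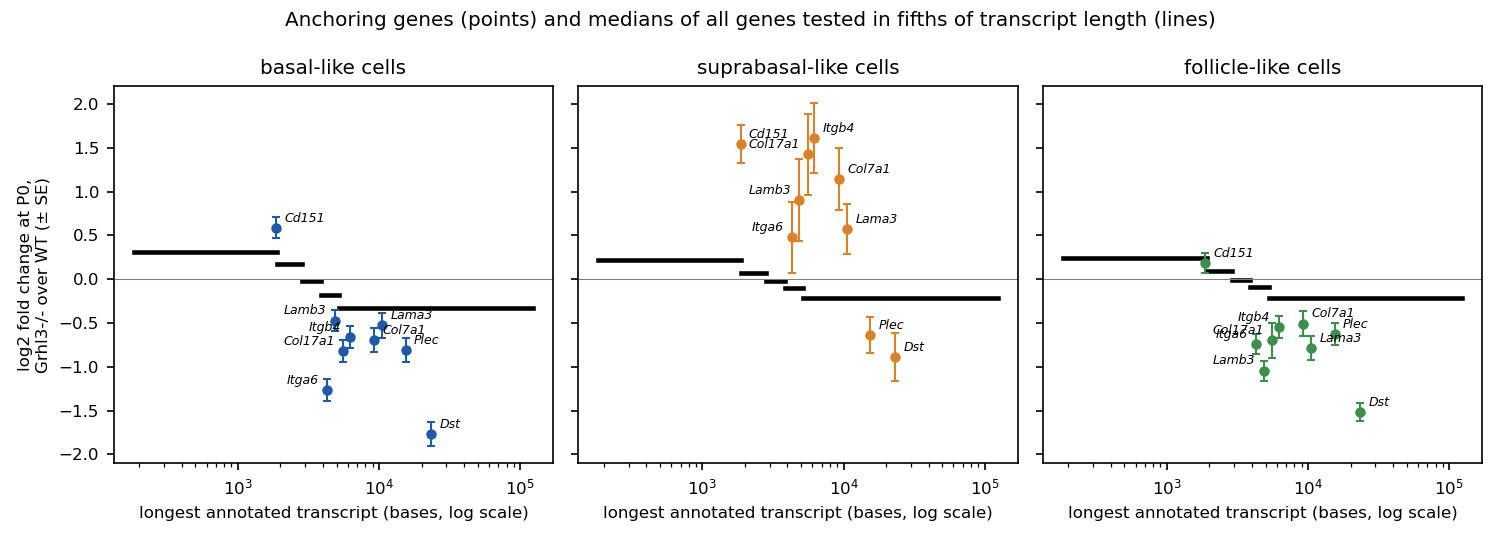
Log2 fold change of Grhl3-/- over WT at P0 (y axis) against the longest annotated transcript in bases (x axis, log scale) in basal-like, suprabasal-like and follicle-like cells. Points with bars of 1 SE are the 9 members, and black lines are the medians of all genes tested in 5 sets of transcript length, each drawn over its range of lengths. The medians fall with length in each class, to -0.33 in the longest set of basal-like cells, where Dst lies at -1.77.

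In suprabasal-like cells at P0 the picture was mixed, with 4 members higher in Grhl3-/- libraries and 2 lower (25.0% of 11014 genes called, 12.6% higher and 12.4% lower). Itgb4 was at 7.89 and 4.24 CPM in WT and at 26.9 and 10.96 CPM in Grhl3-/- libraries, 3.05-fold higher (1.61 ± 0.40, adjusted p = 0.0137). Col17a1 was at 24.3 and 11.6 CPM against 75.4 and 25.8 CPM (2.69-fold, adjusted p = 0.0422), Col7a1 at 21.0 and 12.6 CPM against 55.6 and 21.9 CPM (2.21-fold, adjusted p = 0.0358), and Cd151 at 12.8 and 15.1 CPM against 56.5 and 29.0 CPM (2.92-fold, adjusted p = 0.000816). In each of the 4 genes Grhl3-/- replicate 1 was the highest library and replicate 2 lay much nearer to WT. Both plakins were lower, Dst at 166.1 and 191.9 CPM against 147.5 and 57.6 CPM (1.85-fold, adjusted p = 0.0374) and Plec at 108.9 and 111.8 CPM against 96.5 and 52.7 CPM (1.56-fold, adjusted p = 0.045). For these plakins replicate 1 lay nearer to WT and replicate 2 farther from it. Itga6, Lama3 and Lamb3 did not pass (adjusted p = 0.422, 0.171 and 0.181).

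Of these 6 calls that of Cd151 held without any 1 library, and each of the other 5 was lost without some. They came down to 1, Cd151, when P0 WT replicate 2 was left out or when only the 4 P0 libraries were fitted, and to Cd151, Dst and Plec without Grhl3-/- replicate 1. Leaving out any E14.5 library, or either E16.5 WT library, from the shared estimate of spread left 3 calls. When cells were clustered without integration, a fit that lacked Grhl3-/- replicate 1 because only 15 of its cells fell in the class, the 4 higher members were lower instead, on few UMIs in the 1 Grhl3-/- library left: 6 of Col17a1 (4.79 CPM against 20.1 and 14.3 CPM in WT), 8 of Cd151 (6.39 against 12.9 and 15.7 CPM), 1 of Col7a1 (0.799 against 20.2 and 13.9 CPM) and 0 of Itgb4 (8.75 and 4.47 CPM in WT, where 3 UMIs would have been 2.397 CPM). The v1 WT library held 44.2 CPM of Cd151, 3.17 times the WT mean and between the Grhl3-/- libraries, and 28.8 CPM of Dst, below both of them. The class itself differed in makeup: the subcluster led by Flg and Lor, of the latest stage, gave 136 and 135 of the WT cells (506 and 569) but 14 of 330 in Grhl3-/- replicate 1 and 75 of 241 in replicate 2, whose median mitochondrial share was 0.13% against 2.95 to 3.97% in the others. Krt14, the basal keratin, was at 945.2 and 775.6 CPM in WT and at 8889 and 8712 CPM in Grhl3-/- suprabasal-like cells (log2 difference 3.30 ± 0.27, adjusted p = 7.29e-05). With the subcluster led by Flg and Lor left out, a setting chosen after seeing the data, the calls of Col17a1 and Col7a1 were lost and the other 4 held. The stress list was at 1991 and 2620 CPM in WT, at 3124 and 2870 CPM in Grhl3-/- and at 3830 CPM in the v1 suprabasal-like cells. The part of the stress list and of basal transcripts as a whole in these differences was not tested.

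**Figure D5:**
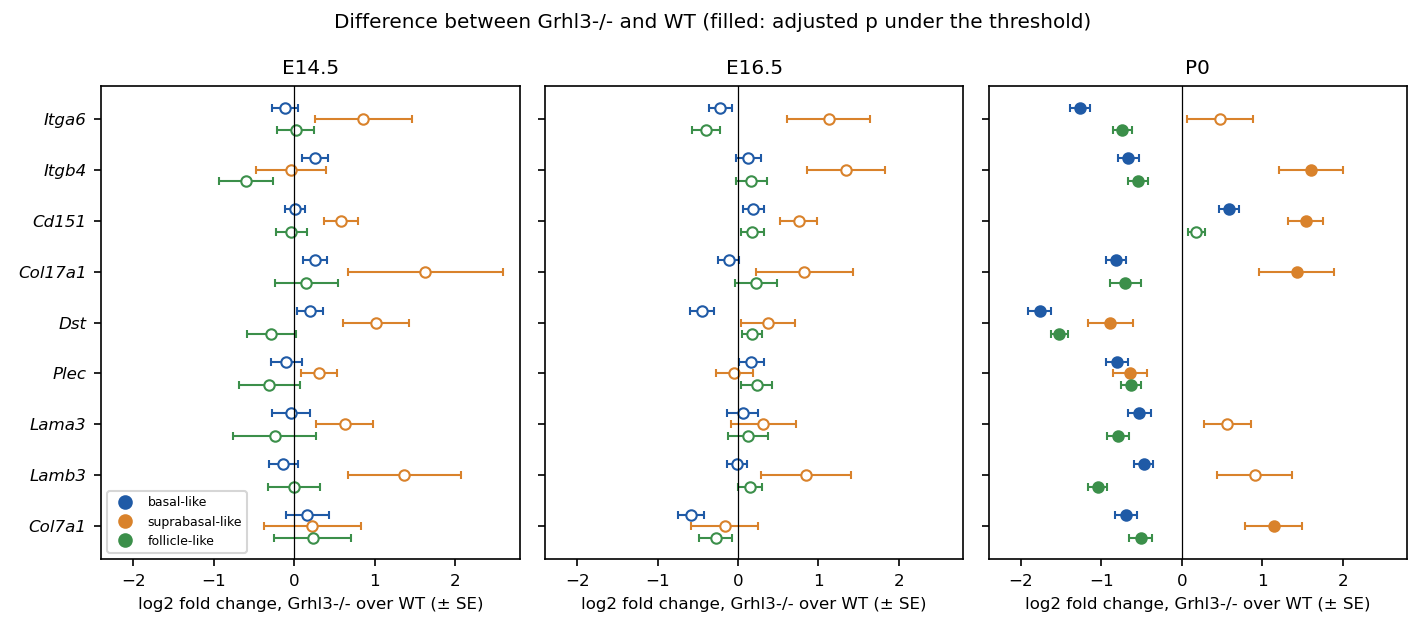
Log2 difference of Grhl3-/- against WT for each member (points, with bars of 1 SE) in basal-like, suprabasal-like and follicle-like cells at E14.5, E16.5 and P0, from edgeR on 2 libraries per group, filled where the adjusted p is below 0.05. No embryonic point is filled, and at P0 the basal-like and follicle-like points lie below 0 for every member but Cd151.

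In follicle-like cells at P0, the class with the most cells (3340 to 4774 per library), 8 members were lower in Grhl3-/- libraries (37.1% of 10636 genes called, 17.6% lower and 19.5% higher). Dst was at 526.7 and 504.6 CPM in WT against 182.2 and 153.2 CPM, 2.87-fold lower (-1.52 ± 0.10, adjusted p = 6.95e-08). Lamb3 was at 108.9 and 113.4 CPM against 53.0 and 47.6 CPM, 2.06-fold lower (-1.04 ± 0.12, adjusted p = 5.59e-06), a wider gap than the 1.39-fold of basal-like cells, though the difference between classes was not tested. Itga6 was 1.67-fold, Lama3 1.73-fold, Col17a1 1.62-fold, Plec 1.55-fold, Itgb4 1.46-fold and Col7a1 1.42-fold lower. Cd151, at 59.8 and 57.1 CPM in WT and 66.1 and 57.9 CPM in Grhl3-/- libraries, did not pass (0.18 ± 0.11, adjusted p = 0.208). Col17a1 and Col7a1 lost their calls without WT replicate 1 or Grhl3-/- replicate 2 and in cells outside S and G2M phase, Col7a1 also with only the libraries compared, and 3 of the 8 calls, of Itga6, Dst and Lamb3, remained when sums were thinned to the smallest library. As in basal-like cells, the median difference fell with transcript length, from 0.24 to -0.22 between the outer sets, and the v1 library lay below both WT libraries for 8 members and above them for Cd151. The genotypes drew on the 16 clusters of the class in different shares, such as 3.76 and 4.25% of WT against 1.299 and 0.741% of Grhl3-/- cells for the cluster led by Klk7 and Cst6. They were 8.98 and 9.16% against 4.90 and 4.62% for that led by Krtap17-1 and Abi3bp, and 7.82 and 6.23% against 11.6 and 13.8% for that led by Msx1 and Krt28. S or G2M phase was scored in 58.0 and 46.7% of WT and 73.4 and 77.4% of Grhl3-/- follicle-like cells. The stress list was at 2793 and 3413 CPM in WT, at 3469 and 3811 CPM in Grhl3-/- and at 4963 CPM in the v1 follicle-like cells. The part of any of these in the differences was not tested.

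Within the follicle-like class the members differed in level between groups of clusters, described without a test because the cells came from clustering. Clusters were put together by the follicle marker list that scored highest in them, which is not a cell type name. Clusters led by the cell cycle gene Nusap1 or by Krtap17-1, a hair shaft gene, fell in the outer root sheath group. Clusters with the inner root sheath keratin Krt28 among their leading genes fell in the matrix group. In P0 WT libraries Dst was highest in the outer root sheath group (698.8 and 748.2 CPM) and the upper follicle group (566.7 and 536.7 CPM). It was lower in the matrix group (313.5 and 273.5 CPM) and lowest in the inner root sheath group (84.9 and 61.6 CPM). In Grhl3-/- libraries it was lower in all 4 groups, at 295.1 and 254.5, 226.9 and 222.7, 75.8 and 70.2, and 13.9 and 12.5 CPM, and the order was kept. Col17a1 also differed, from 199.3 and 132.4 CPM in the WT upper follicle group to 14.1 and 5.26 CPM in the inner root sheath group. Plec did not fall in this way, since the inner root sheath group held 116.3 and 145.4 CPM of it in WT. Lamb3 in the matrix group was at 89.9 and 100.1 CPM in WT against 36.6 and 36.5 CPM in Grhl3-/- libraries.

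At E14.5 and E16.5 no member was called between genotypes in any class by edgeR. At E14.5 few genes were called at all, 0.00866% in basal-like, 0.763% in suprabasal-like and 0.0% in follicle-like cells, and at E16.5 0.494%, 3.62% and 0.0846%. In the 3 classes an unadjusted p under 0.05 was found by edgeR for 422 of 11542, 1395 of 11014 and 546 of 10636 genes at E14.5. At E16.5 it was found for 1199, 1812 and 485 genes. The members among them numbered 0, 2 and 0 at E14.5 and 2, 3 and 1 at E16.5. In basal-like cells at E16.5 these were Col7a1, at 83.5 and 91.9 CPM in WT against 61.0 and 59.8 CPM (-0.58 ± 0.16, adjusted p = 0.157), and Dst, at 137.0 and 144.7 CPM against 111.5 and 101.3 CPM (-0.45 ± 0.15, adjusted p = 0.271). Neither gene overlapped between genotypes, but 5 members of 9 did not, and 44.1% of all genes. In suprabasal-like cells at E14.5 7 of 9 did not overlap, beside 53.4% of all genes, and the members' median log2 difference was 0.63 against 0.00 over all genes tested. There the subcluster led by Krt17 gave 4.76 and 4.59% of WT against 19.9 and 23.7% of Grhl3-/- cells. S or G2M phase was scored in 55.8 and 61.5% against 36.96 and 35.5%, and the part of either in that median was not tested. At E16.5 the median in this class was 0.75 against -0.01 over all genes tested, with 7 of 9 members above 0. Beside it Krt14 was higher in Grhl3-/- cells (1.21 ± 0.25, adjusted p = 0.0254). The subcluster led by Sprr1b and Krt6b gave 8.37 and 4.76% of WT against 18.8 and 26.8% of Grhl3-/- cells. That led by Lce1m and Crct1 gave 11.03 and 9.52% against 2.56 and 3.66%. Their part was not tested either. In suprabasal-like cells the smallest p at both ages was that of Cd151, at 29.98 and 34.0 CPM in WT against 49.3 and 46.5 CPM at E14.5, and 22.9 and 21.7 CPM against 36.2 and 44.3 CPM at E16.5 (adjusted p = 0.281 and 0.114). DESeq2 also called 0 members in the 6 comparisons. Other settings made calls: with genes of low count kept or only the 4 libraries of that age fitted, 1 or 2 members were called at E16.5 in basal-like cells and 2 or 4 at E14.5 in suprabasal-like cells, and leaving out either P0 Grhl3-/- library gave 1 or 2 calls in each of these and 1 in suprabasal-like cells at E16.5. Calls over all genes rose under such settings too. With genes of low count kept they went from 57 to 193 at E16.5 in basal-like cells. With only the 4 libraries of that age fitted they went from 84 to 1273 at E14.5 in suprabasal-like cells. The differences between genotypes were themselves compared between ages, and in basal-like cells the P0 difference departed from that at E16.5 for Col17a1, Itga6, Itgb4, Dst and Plec (15.6% of genes called, 5.92% downward) and in follicle-like cells for Dst, Plec, Lama3 and Lamb3 (11.8%, 3.41% downward), but for no member in suprabasal-like cells (4.25%). From E14.5 it departed for 7 members in basal-like cells, 6 of them downward (18.2% of genes called, 7.29% downward and 10.9% upward), and for Dst downward in suprabasal-like (9.92%, 4.19% downward) and follicle-like cells (5.36%, 1.03% downward). Between the embryonic ages it departed for none (0.139, 0.835 and 0.0188% of genes in the 3 classes). These tests share their libraries with the comparisons above.

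Further genes of the basement membrane zone, 41 in a list that holds no member, moved in both directions. In P0 basal-like cells 38 were tested and 8 were higher, 4 lower and 26 not called in Grhl3-/- libraries, with a median of 0.00, so that 31.6% were called beside 38.6% of all genes. The lower ones included the laminin chain Lamb1 (-0.64) and Col18a1 (-0.74), the higher ones the matrix proteins Smoc2 (1.13) and Fbln1 (0.74). The higher ones also held the 4 tetraspanins Cd9, Cd81, Cd82 and Cd63, which like Cd151 have 4 membrane passes and were picked out after their values were seen. In suprabasal-like cells at P0 2 of these 4 tetraspanins were higher and 0 lower, and in follicle-like cells 0 were higher and 0 lower. Of all genes, 19.2% were higher in basal-like, 12.6% in suprabasal-like and 19.5% in follicle-like cells. Of the 37 tested in follicle-like cells 8 were lower and 0 higher (21.6% called beside 37.1%), with Egfl6 (-0.89) and Lamb2 (-0.61) in front. Of the 36 tested in suprabasal-like cells 9 were higher, Smoc2 (1.87) and Col4a6 (1.79) most, and Itgb5 (-0.90) and Dag1 (-0.88) were lower (30.6% called beside 25.0%). In WT basal-like cells the list split at both steps of age, with 7 higher and 6 lower from E14.5 to E16.5 (34.2% called beside 16.4%) and 17 higher and 10 lower from E16.5 to P0 (71.1% beside 61.4%).

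Desmosomes, the junctions between keratinocytes, use related plakins and were read as a second list of 14 genes. In P0 basal-like cells 10 of the 13 tested were lower in Grhl3-/- libraries and 0 higher, Dsg1a (-1.79) and Evpl (-1.76) by most, beside 19.4% of all genes lower. In follicle-like cells all 10 tested were lower, beside 17.6% of all genes. In suprabasal-like cells 8 were lower, Dsc1 (-1.49) and Evpl (-1.36) by most, and 3 higher, among them the cadherins Dsc2 (4.84) and Dsg3 (2.39), beside 12.4% of all genes lower and 12.6% higher. At P0 lower values in basal-like and follicle-like cells were therefore read in the desmosome list as well as in 8 members. In WT basal-like cells 9 of the 13 were higher and 0 lower from E14.5 to E16.5 (median 1.54, beside 8.93% of all genes higher). From E16.5 to P0 11 were higher and 0 lower (median 1.75, beside 31.1%). Higher values at E16.5 and again at P0 were thus read in this list as well as in 8 members. Age and preparation cannot be told apart at P0. Embryonic libraries gave 2 calls between genotypes in this list, Perp (-0.66) at E14.5 and Ppl (-0.77) at E16.5, both lower in Grhl3-/- suprabasal-like cells.

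The genes whose levels went most closely with each member were sought over the 36 sums of 12 libraries and 3 classes, among 9990 genes tested in all classes, as a description (Pearson's r of log2(CPM + 1), the sums sharing libraries, ages and depth). For Col17a1 these were Itga6 (0.953), Antxr1 (0.946) and Lamb3 (0.923), so that 2 of its 3 closest genes were members. Col17a1 (0.923) and Trp63 (0.923) were among the 3 closest to Lamb3. Itga6 was closest to Col17a1 and had Itgb4 at place 14 of 9990 (0.870), and Itgb4 was closest to Fgfr2 (0.941), Ahcyl2 (0.926) and Tjap1 (0.920). Dst was closest to Lifr (0.962), Klf9 (0.931) and Sh3pxd2a (0.923), Plec to Aff1 (0.909), Bcl9l (0.908) and Neat1 (0.899), Lama3 to Tnrc18 (0.944), Sfxn3 (0.921) and Cdh13 (0.920), and Col7a1 to Mef2a (0.900), Ppp1r14a (0.898) and Nfkb1 (0.895). Cd151 was closest to Wnt6 (0.956), Bcam (0.943) and Rac3 (0.942), and to no other member among its leading 3.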

How the data were processed

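The authors aligned reads to mm10 with Cell Ranger (1.3.1 in the submitters' processing notes, another version in the methods) and deposited raw UMI counts per gene and barcode, 13 libraries without normalization. The members and all lists were chosen with earlier results of these data known, and the score limits for naming clusters were set after scores had been seen. The study's own limits were applied to cells, 600 and 4800 detected genes in embryos, 900 and 7700 at P0 and 10% for the mitochondrial share, and genes had to be found in 6 cells or more. Cells were integrated across the libraries of an age and clustered in Seurat 5.3.0 (3000 variable genes without members or anchoring genes, 30 components, 20 neighbours, resolution 1.0 for all cells and 0.8 for IFE cells), and clusters were named from fixed markers. Doublets were left in, and an alternative removed the cells with the highest Scrublet scores. UMI counts were summed per library and class (at least 20 cells) and tested with edgeR 4.0.16 (TMM, filterByExpr, quasi-likelihood, 6 groups of 2, R 4.3.3) in 9 comparisons per class, with Benjamini-Hochberg adjustment over all genes tested and a threshold of 0.05, after the script had been tested on simulated data. Each SE was taken from the log2 difference and its F statistic. Overlap between groups, for members and for all genes, was counted on CPM values written out with the tests. These can differ from the CPM printed here: Cd151 in follicle-like cells at P0 overlapped between genotypes in the printed values only. An exact permutation test of 2 against 2 libraries cannot go below p = 0.333, so none was run. p-values measure the spread between animals of a group, 1 male and 1 female. In every comparison the 9 members, Krt5, Krt14, Krt1, Krt10 and Grhl3 could be named, with the 2 most changed genes in each direction of the other 2 lists and, for likeness, the 3 highest correlations. Tetraspanins of the first list were named after their values had been seen. A gene that the rule also named is not reported here. Single cells, order bins and subclasses were described with Python 3.11.15, scanpy 1.11.5 and scipy 1.17.1. Alternatives were DESeq2 1.42.0, other size factors, no filter, each library left out, a replicate block, other clusterings, cell filters and thinned sums. The v1 library is titled Chromium v1 and has 14-base barcodes, although its sample record also names the v2 chemistry, and it was kept out of tests.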

Additional observations from a re-analysis of the deposited data

Results flagged for a closer look

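The difference between Grhl3-/- and WT was itself compared between ages, and members for which that test passed are given here as log2 values of the later difference minus the earlier one (edgeR, 2 libraries per group, adjusted over all genes). All of these comparisons share libraries, and age at P0 cannot be told apart from preparation. In basal-like cells P0 departed from E16.5 for 5 members, Dst by -1.32 ± 0.20 SE (adjusted p = 0.000342), Itga6 by -1.05 (0.00123), Plec by -0.97 (0.00377), Itgb4 by -0.79 (0.0108) and Col17a1 by -0.71 (0.0122), in a comparison where 15.6% of genes were called. Without E16.5 WT replicate 1 it did so for 3.

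From E14.5 the departure in basal-like cells passed for 7 members (18.2% of genes called): Dst by -1.96 ± 0.21 SE (adjusted p = 1.16e-05), Itga6 by -1.15 (0.000767), Col17a1 by -1.08 (0.000875), Itgb4 by -0.92 (0.0047), Col7a1 by -0.86 (0.0499), Plec by -0.71 (0.0436) and, with the opposite sign, Cd151 by 0.58 (0.0299). Leaving out E14.5 WT replicate 1, E14.5 WT replicate 2 or E14.5 Grhl3-/- replicate 1 left 4, 3 and 4 of these calls. Of 24 alternatives the call of Col7a1 held under 5, that of Plec under 10 and that of Cd151 under 14, the first also being lost without either E16.5 WT, either E16.5 Grhl3-/- or either P0 WT library.

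In follicle-like cells P0 departed from E16.5 for Dst by -1.69 ± 0.16 SE (adjusted p = 1.6e-05), Lamb3 by -1.19 (0.000753), Lama3 by -0.91 (0.0433) and Plec by -0.86 (0.0204), against 11.8% of genes. Leaving out E16.5 WT replicate 2, either E16.5 Grhl3-/- library or P0 Grhl3-/- replicate 2 left 2 calls. From E14.5 it passed for Dst alone, by -1.23 (adjusted p = 0.0301, 5.36% of genes called), and Dst also departed in suprabasal-like cells, by -1.90 (adjusted p = 0.0328, 9.92% of genes called). Both of these calls were lost when E14.5 WT replicate 1 or 2, E14.5 Grhl3-/- replicate 2 or P0 WT replicate 1 was left out, and each with further libraries besides.

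Between E14.5 and E16.5 the difference did not depart for any member in the 3 classes by edgeR or DESeq2, and only 0.139%, 0.835% and 0.0188% of genes were called. At an unadjusted p under 0.05 (edgeR) there were 2, 0 and 0 members, beside 921 of 11542, 1630 of 11014 and 499 of 10636 genes. In suprabasal-like cells no member passed between E16.5 and P0 (4.25% of genes called). At an unadjusted p under 0.05 (edgeR) there were 3 members, beside 2356 of 11014 genes.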

How the results depend on the processing

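The lower values of 8 members and the higher value of Cd151 in P0 Grhl3-/- basal-like cells kept their direction under all 25 alternatives, with 7 to 9 calls, as did the rise of 8 members from E14.5 to P0 in WT. The number of members called moved by over 1.5 times as follows, the cause not being tested. With genes of low count kept, calls were 1 (from 0) for genotype at E16.5 in basal-like cells, 2 (from 0) at E14.5 and 2 (from 0) at E16.5 in suprabasal-like cells, 5 (from 3) for WT E16.5 against E14.5 there, and 2 (from 0), 3 (from 1) and 2 (from 1) for the departure at P0 from E16.5 and from E14.5 in suprabasal-like and from E14.5 in follicle-like cells. That setting also raised all genes called for genotype at E16.5, from 57 to 193 in basal-like and from 399 to 909 in suprabasal-like cells. With only the libraries compared, calls for genotype were 2 at E16.5 in basal-like, 4 at E14.5 and 1 at P0 (from 6) in suprabasal-like cells, and 5 for WT E16.5 against E14.5 there. All genes called for genotype in suprabasal-like cells then went from 84 to 1273 at E14.5 and from 2750 to 915 at P0. Thinning sums to the smallest library left 3 calls (from 7) for the basal-like departure at P0 from E14.5, 3 (from 6) and 3 (from 8) for genotype at P0 in suprabasal-like and follicle-like cells, and in follicle-like cells 1 (from 3) and 5 (from 8) for the WT steps and 1 (from 4) and 0 (from 1) for the departures. Clustering without integration gave 2 and 3 calls for genotype at E14.5 and E16.5 in suprabasal-like cells, and for the departures at P0 from E16.5 and from E14.5 8 and 8 in suprabasal-like and 8 and 4 in follicle-like cells. All genes called for these departures rose with that clustering in both classes. In follicle-like cells they went from 1250 to 1719 for the departure from E16.5 and from 570 to 847 for that from E14.5. Without integration the suprabasal-like fit lacked P0 Grhl3-/- replicate 1, and the P0 differences reversed to -1.61 for Col17a1, -8.04 for Itgb4, -4.15 for Col7a1 and -0.94 for Cd151, fitted on 6, 0, 1 and 8 UMIs and therefore no bounds. In cells outside S and G2M phase, where 10 basal-like and 9 follicle-like libraries had enough cells, calls were 1 for the basal-like departure from E14.5, 1 and 7 (from 4) for the WT steps and 0 for the departure from E14.5 in suprabasal-like cells, and 1 for the follicle-like departure from E16.5, where Lama3 reversed to 0.71. A mitochondrial limit of 5% gave 4 and 0 calls for the departure from E14.5 in basal-like and follicle-like cells, DESeq2 gave 4 in basal-like cells, and resolution 0.4 gave 2 in suprabasal-like cells. Leaving out the subclusters led by Col17a1 and Col7a1, or by Lor, a setting chosen after seeing the data, gave 7 calls for WT P0 against E16.5 and 1 for the departure from E16.5 in suprabasal-like cells. With 1 library left out, the lone library being assumed to vary like the other groups, calls ran in basal-like cells from 0 to 1 for genotype at E16.5, 3 to 6 for the departure from E16.5 and 3 to 6 from E14.5. In suprabasal-like cells they ran from 0 to 2, 0 to 1 and 1 to 6 for genotype at E14.5, E16.5 and P0, 2 to 5 for WT E16.5 against E14.5, 5 to 8 for WT P0 against E14.5, and 0 to 2 and 0 to 3 for the departures, and in follicle-like cells from 1 to 3 for WT E16.5 against E14.5, 2 to 6 and 0 to 1 for the departures. Replicate numbers did not pair the samples (correlation of same-numbered deviations -0.049 to 0.049), and a replicate block gave 0 members called (from 1) for the suprabasal-like departure from E14.5 and kept the other counts within 1.5 times. Genes called at P0 between genotypes numbered 2628 to 4635 (4452 as reported) in basal-like, 915 to 3293 (2750) in suprabasal-like and 390 to 4769 (3942) in follicle-like cells. Low counts limit the suprabasal-like values, where a member can rest on 4 UMIs in a library, and depth the follicle-like values at E14.5, where the smallest sum held 288391 UMIs of 31 cells.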

Other observations

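Members were also read in other cells of the embryonic WT skin, where the dermis was kept, as mean CPM of 2 libraries. In Schwann cells at E16.5 Itga6 was at 264.6 CPM (260.6 and 268.6), Dst at 292.0 CPM (279.6 and 304.3), Itgb4 at 52.4 CPM and Lamb3 at 1.60 CPM. In endothelial cells Itga6 was at 181.2 CPM, Cd151 at 194.2 CPM and Itgb4 at 12.97 CPM at E16.5. Pericytes held 120.4 CPM of Itga6 at E14.5 and 51.1 CPM at E16.5. Col7a1 was present on the dermal side too, in fibroblasts at 42.9 CPM (36.1 and 49.7) at E14.5 and 93.2 CPM (85.6 and 100.8) at E16.5, the latter level beside 83.5 and 91.9 CPM in basal-like cells of the same animals. Clusters called neurons from a short marker list alone held 207.6 CPM of Col7a1 at E16.5 (200.4 and 214.8). They held 9.19 CPM in the single E14.5 library with enough such cells. Whether these clusters were neurons, or the same kind of cell at both ages, was not tested.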
